A study of Mus musculus with 32 samples.

Results

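Ovariectomy was compared with sham surgery in the lungs of female C57B/6 mice that had breathed cigarette smoke for 3 months. The comparison takes 6 of the 32 libraries of the series, chosen by their labelled surgery and exposure time. It holds 3 libraries after ovariectomy (numbered B1 to B3 by the labels) and 3 after sham surgery (A1 to A3). All 6 came from whole lung tissue of females of 1 strain, and all had smoke exposure, so the comparison has no unexposed control. The labels give no age at surgery, hour of collection or cage, and they do not say whether each library came from a separate mouse. The p-values therefore measure the spread between libraries, which may be technical. The same experiment holds 10 more female libraries from 5 months of smoke, 5 per surgery, which entered the same fit so that all 16 libraries share an estimate of the spread.

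Ovariectomy removes the main source of estradiol and progesterone in female mice. Estradiol acts through the nuclear receptors ESR1 and ESR2, which bind DNA and switch target genes on or off, and through a membrane receptor, GPER1. The lung also runs a circadian clock. In it BMAL1 (gene Arntl) with CLOCK or NPAS2 drives Per, Cry, Dbp and Rev-erb genes through E-box sequences. PER and CRY proteins then inhibit BMAL1, and the Rev-erb repressors (Nr1d1, Nr1d2) shut down Arntl, so RNA of the Bmal1 arm and RNA of the Per and Dbp arm peak at opposite times of day.

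Depth was 14150357 to 18971266 counts per library in the 6 libraries of the comparison. The lung's own markers were abundant in each of them. Sftpc, the surfactant protein C gene of alveolar type 2 cells, had 24532 to 30308 CPM (counts scaled to a common library size), and Scgb1a1, the secretoglobin of club cells, had 3619 to 8498 CPM. A different kind of RNA separated 2 libraries from the rest. Albumin (Alb), made by hepatocytes, was at 0.90, 1.95 and 0.62 CPM in the sham libraries and at 1.44 CPM in ovariectomy library 1, but at 502 and 1151 CPM in ovariectomy libraries 2 and 3. The same 2 libraries carried the rest of a 10-gene liver list. Its summed level was 4.82 to 6.04 CPM in the sham libraries, 5.16 in ovariectomy library 1, and 713 and 1606 in libraries 2 and 3. That is at most 0.161% of a library's reads. Of the 5-month libraries, 3 were also above the limit of 100 CPM of Alb (sham libraries 1 and 2 and ovariectomy library 5), and results are given below without all 5 of them where it matters.

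**Figure D1:**
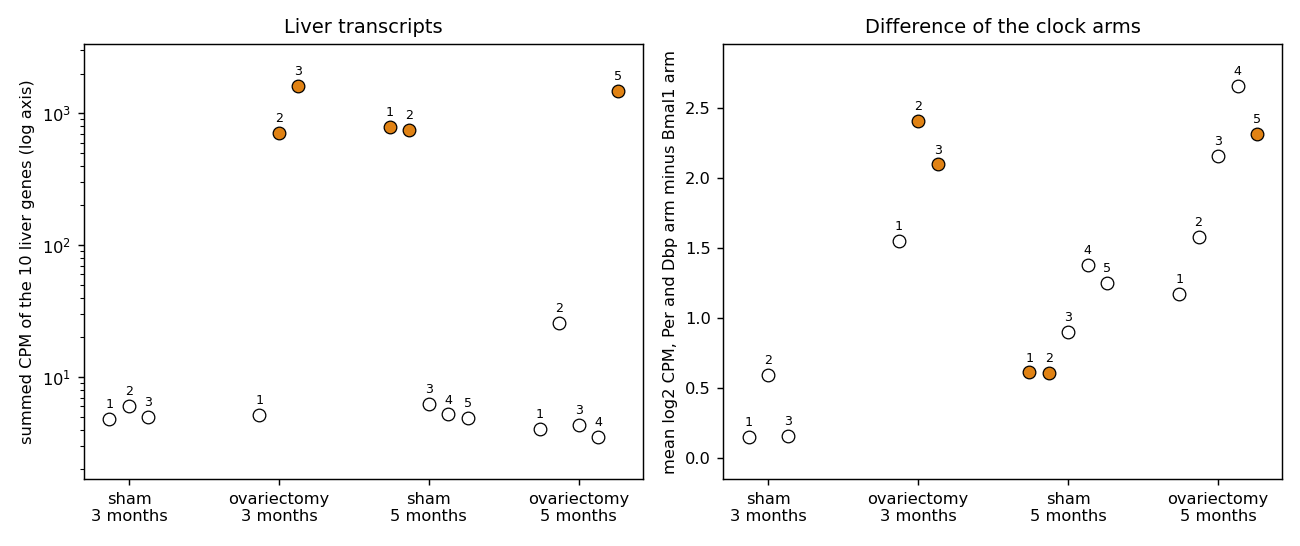
Left, the summed CPM of the 10 liver genes (log axis) in each of the 16 libraries, by surgery and months of smoke; right, the gap between the clock arms in the same libraries, as the mean log2 CPM of Per and Dbp genes less the mean of Bmal1-arm genes. Filled points are the 5 libraries with over 100 summed CPM of liver genes and the digits are replicate numbers; at 3 months the ovariectomy libraries lie at 1.55, 2.41 and 2.10 on the right and the sham libraries at 0.147, 0.592 and 0.159, with ovariectomy library 1 free of the liver RNA seen in libraries 2 and 3.

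No gene passed the test at 3 months. Of 16874 genes tested with edgeR's quasi-likelihood test, 0 (0%) reached a Benjamini-Hochberg adjusted p under 0.05, and the smallest adjusted p was 0.0639, shared by 3 genes. At an unadjusted p under 0.05 there were 1568 genes (9.29% of those tested), 850 higher after ovariectomy (5.04%) and 718 lower (4.26%). The counts of genes past the adjusted threshold by the other tools were 93 with DESeq2 (71 higher, 22 lower) and 1 with limma on log2(TPM + 1), which was Nr1d2. Of the 93, 27 had a log2 fold change over 3 in edgeR, and in 24 of those ovariectomy library 1 was no higher than the highest sham library. Of the 93, 8 were among the 16 clock genes described next, and 4 were on the liver list.

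The differences over the whole transcriptome were small. The median log2 fold change, ovariectomy minus sham, was 0.0035, and the median absolute value was 0.16. At least 2-fold differences were fitted for 868 genes, 512 higher and 356 lower. Of the 180 genes with a log2 fold change over 3, ovariectomy library 1 was no higher than the highest sham library in 151, so those values came from libraries 2 and 3. All 3 ovariectomy libraries lay above all 3 sham libraries for 1266 genes (7.50%) and below them for 1303 (7.72%). Such genes are called separated below, and these 2 shares are the background for their counts.

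**Figure D2:**
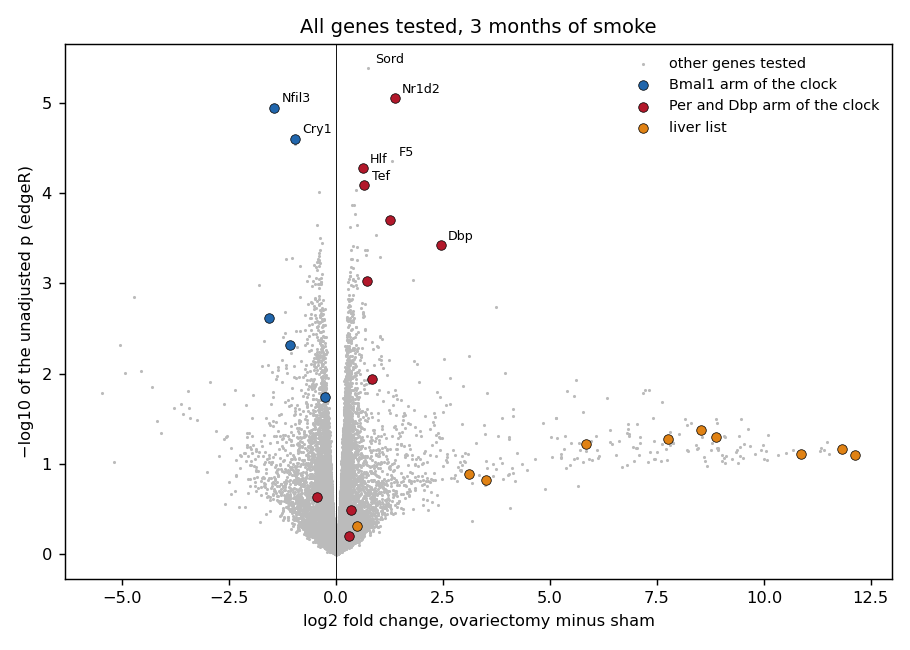
Each point is 1 of the genes tested, with the log2 fold change of ovariectomy minus sham at 3 months on the horizontal axis and minus log10 of its unadjusted edgeR p on the vertical axis; colours mark 5 Bmal1-arm genes, 10 Per and Dbp genes and 10 liver genes. Clock genes (Nr1d2, Nfil3, Cry1, Hlf, Tef) sit at the top among the smallest p-values, and the liver genes spread far to the right at modest p.

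By a rule on p, 10 genes, 5 per direction, were named as those of smallest p among regularly named genes with separated groups. Of these, 4 were clock genes: Nr1d2 and Hlf were higher after ovariectomy, Nfil3 and Cry1 lower. By the positions in the deposited table, Nr1d2 (ENSMUSG00000021775) lies at chr14:18204054-18239127 on the minus strand, Nfil3 (ENSMUSG00000056749) at chr13:52967209-52981073 on the minus strand and Cry1 (ENSMUSG00000020038) at chr10:85131702-85185054 on the minus strand. Their values are given by arm, with the other members of the 2 clock lists.

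In the Bmal1 arm, 5 of the 6 genes tested were lower in every ovariectomy library than in every sham library, against 7.72% of all genes. None passed the adjusted threshold, and the median log2 fold change of the 6 was -1.02. Arntl, which encodes BMAL1, was at 42.6, 41.5 and 40.2 CPM in the sham libraries and at 28.6, 14.9 and 15.8 CPM after ovariectomy. The groups did not overlap, and libraries 2 and 3 were lower than library 1. The log2 fold change was -1.08 ± 0.32 (SE; n = 3 libraries each; edgeR adjusted p = 0.321).

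Npas2, whose product can take the place of CLOCK beside BMAL1, followed the same order of libraries, at 18.7, 22.5 and 19.6 CPM against 11.97, 4.04 and 4.54 CPM. Its log2 fold change was -1.58 ± 0.43 (edgeR adjusted p = 0.266). Clock itself differed least among the 5 separated genes, from 108, 96.9 and 104 CPM to 87.8, 77.4 and 94.5 CPM, a log2 fold change of -0.25 ± 0.10.

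Nfil3 encodes a bZIP repressor that competes with DBP, TEF and HLF for D-box sequences. It was at 14.6, 14.3 and 14.97 CPM in the sham libraries and at 4.196, 5.11 and 6.68 CPM after ovariectomy, and library 1, which lacked the liver RNA, was the lowest of all 6. The log2 fold change was -1.45 ± 0.26 (edgeR adjusted p = 0.0639). Cry1, a repressor of BMAL1 whose RNA follows the Bmal1 arm in phase more closely than the Per genes do, was at 26.5, 21.0 and 17.3 CPM against 11.97, 11.2 and 10.1 CPM. Its log2 fold change was -0.96 ± 0.19 (edgeR adjusted p = 0.0968).

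In the Per and Dbp arm, 7 of the 10 genes tested were higher in every ovariectomy library than in every sham library, against 7.50% of all genes, and the median log2 fold change was 0.69. None passed the adjusted threshold. Dbp, which encodes an activator at D-box sequences and swings widely through the day, was at 4.75, 15.6 and 5.61 CPM in sham and at 33.4, 65.7 and 43.1 CPM after ovariectomy. The sham libraries differed from each other more than 3-fold, and still all lay below the lowest ovariectomy library. The log2 fold change was 2.45 ± 0.50 (edgeR adjusted p = 0.224).

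The partners of DBP in the PAR-bZIP family differed less and were tighter within groups. Tef was at 188, 209 and 189 CPM in sham and 257, 348 and 319 CPM after ovariectomy, a log2 fold change of 0.66 ± 0.13 (edgeR adjusted p = 0.151). Hlf was at 44.6, 48.03 and 37.9 CPM against 63.8, 73.7 and 63.8 CPM, a log2 fold change of 0.63 ± 0.13 (edgeR adjusted p = 0.113). Both genes showed separated groups, and in both the highest value was in ovariectomy library 2.

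Nr1d1 and Nr1d2 encode the Rev-erb repressors. Nr1d2 was at 52.8, 61.8 and 49.5 CPM in sham and at 106, 177 and 139 CPM after ovariectomy, so every ovariectomy library lay above the highest sham library by a wide margin. Its log2 fold change was 1.36 ± 0.20 (edgeR adjusted p = 0.0639). Nr1d1 was at 35.0, 73.2 and 57.6 CPM against 107, 169 and 119 CPM, a log2 fold change of 1.25 ± 0.24. The remaining separated genes were Per3 (log2 fold change 0.84 ± 0.28) and Bhlhe41 (0.72 ± 0.19), a repressor that binds E-boxes.

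The other 3 genes of this arm overlapped between the groups. Per1, which also responds to glucocorticoids, was at 124, 58.2 and 61.7 CPM in sham and 76.2, 86.9 and 137 CPM after ovariectomy. Per2 was at 23.8, 39.6 and 25.3 CPM against 28.5, 42.5 and 42.4 CPM. Both turned to slightly negative values without the libraries over 100 CPM of Alb (-0.09 and -0.06 on the log2 scale). Ciart was lower, with a log2 fold change of -0.44 ± 0.36.

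**Figure D3:**
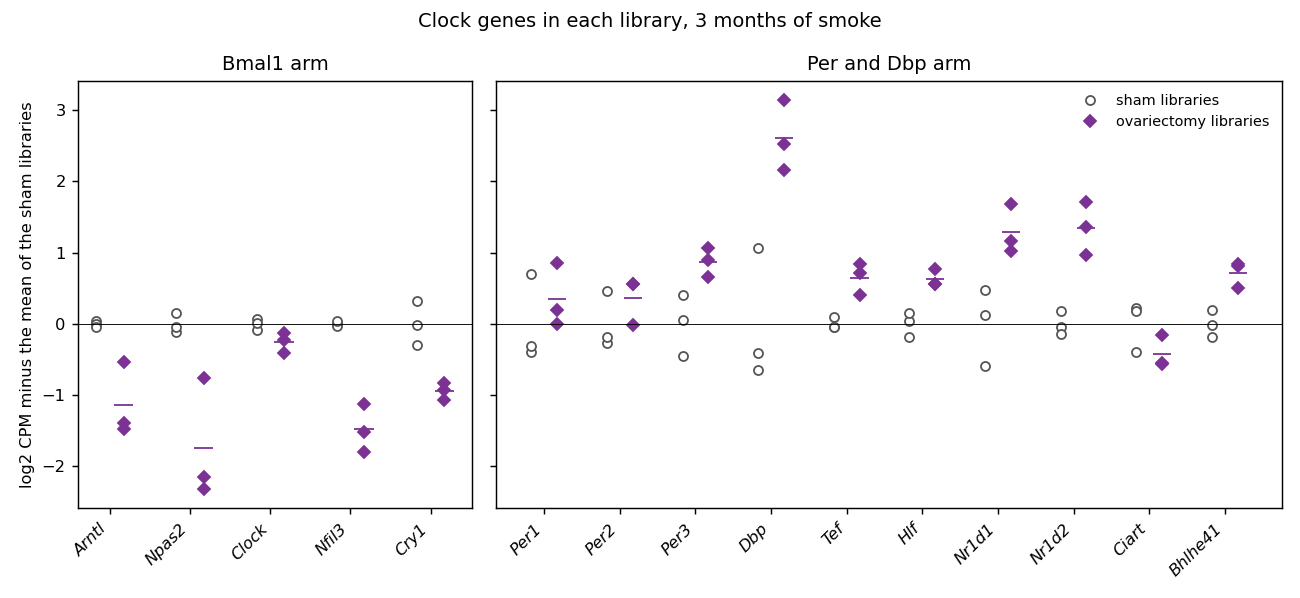
Each point is 1 library at 3 months, plotted as its log2 CPM minus the mean log2 CPM of the 3 sham libraries for that gene; open circles are sham, filled diamonds ovariectomy, and short bars the ovariectomy means. The 5 Bmal1-arm genes drawn have all ovariectomy libraries below all sham libraries, and in the Per and Dbp arm 7 of 10 have them all above.

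The pattern did not rest on 1 ovariectomy library. Each of the 3 lay below all sham libraries in 5 of the 6 Bmal1-arm genes, and above all sham libraries in 7, 8 and 9 of the 10 genes of the other arm. Library 1, with no more liver RNA than the sham libraries, was the least far in Arntl, Npas2, Cry1, Dbp, Tef, Nr1d1, Nr1d2, Per3 and Bhlhe41. Of the other separated clock genes, Nfil3 was farthest in library 1, Clock was least far in library 3, and Hlf was equal in libraries 1 and 3. Without the libraries over 100 CPM of Alb, library 1 was the only ovariectomy library left at 3 months. The arm medians were then -0.65 and 0.517, with Arntl at -0.54, Npas2 at -0.76, Tef at 0.39 and Ciart at -0.19. The gap between the arms, as mean log2 CPM of Per and Dbp genes less the mean of Bmal1-arm genes, was 0.147, 0.592 and 0.159 in the sham libraries and 1.55, 2.41 and 2.10 after ovariectomy. In whole tissue, fewer cells of a type and less RNA per cell cannot be told apart. The arms peak at opposite times of day, and the hour of collection is not in the labels. Surgery and hour therefore cannot be told apart here, and the part of the hour was not tested. The library titles also fall in separate number runs for sham and ovariectomy. The labels do not say what these runs mark, so surgery and title run cannot be told apart either.

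Some of these genes hold a clock motif close to their start. Shown here are 4 chosen because they hold a match and lie on the 2 sides of the difference described above. Each is the 250 bases before a RefSeq start (GRCm38.p6), 5′ to 3′ on the gene's strand. Capitals mark the Rev-erb element TAGGTCA in Nfil3, where it stands on the opposite strand and so reads as its reverse complement, and the E-box CACGTG in the others. Nfil3 is at chr13:52981040-52981289 (minus strand), Cry1 at chr10:85185055-85185304 (minus), Tef at chr15:81802423-81802672 (plus) and Bhlhe41 at chr6:145865421-145865670 (minus).
Nfil3: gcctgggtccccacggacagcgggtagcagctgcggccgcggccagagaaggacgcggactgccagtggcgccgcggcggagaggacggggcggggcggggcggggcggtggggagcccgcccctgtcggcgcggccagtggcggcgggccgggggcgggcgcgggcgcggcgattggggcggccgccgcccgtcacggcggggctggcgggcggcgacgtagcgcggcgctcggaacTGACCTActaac
Cry1: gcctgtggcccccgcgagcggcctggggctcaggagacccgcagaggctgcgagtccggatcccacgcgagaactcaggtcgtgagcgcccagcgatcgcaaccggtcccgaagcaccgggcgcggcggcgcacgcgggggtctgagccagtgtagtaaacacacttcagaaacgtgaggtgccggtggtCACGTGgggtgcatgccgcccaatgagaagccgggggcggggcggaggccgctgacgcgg
Tef: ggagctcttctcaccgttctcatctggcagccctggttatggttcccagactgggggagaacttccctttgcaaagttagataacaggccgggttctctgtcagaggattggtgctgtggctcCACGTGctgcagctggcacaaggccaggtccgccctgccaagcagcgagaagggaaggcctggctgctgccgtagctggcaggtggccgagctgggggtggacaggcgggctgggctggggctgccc
Bhlhe41: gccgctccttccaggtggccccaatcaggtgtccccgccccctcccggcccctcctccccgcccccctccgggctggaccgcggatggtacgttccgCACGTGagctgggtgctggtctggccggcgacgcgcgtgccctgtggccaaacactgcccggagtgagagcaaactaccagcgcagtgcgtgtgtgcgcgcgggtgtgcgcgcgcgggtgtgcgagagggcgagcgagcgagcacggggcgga

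The motifs were searched on both strands in the window from 250 bases before to 50 bases after each start, and a gene with several starts counted once if any window matched. The E-box CACGTG was found in 4 of the 9 Per and Dbp arm genes with a window (Per1, Tef, Ciart, Bhlhe41) and in 1 of 5 Bmal1-arm genes (Cry1), beside 7.15% of all 32851 windows and 10.7% of the 11828 tested genes with a window. TAGGTCA was found in 2 of the 5 Bmal1-arm genes (Arntl and Nfil3) and 0 of the 9 in the other arm. Its shares were 2.61% of windows and 2.39% of tested genes with a window. The D-box TTANGTAA was found in Per3 alone of the 14, beside 2.32% of windows and 1.96% of tested genes. The full palindromic estrogen response element was in none of them, and in 0.07% of windows and 0.0169% of tested genes. A match describes the letters in the window, and no match says nothing of more distant sites.

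The other 6 genes named by smallest p were not on the clock lists, and Sord had the smallest p of all. Sord, which encodes the polyol pathway enzyme sorbitol dehydrogenase, was at 36.9, 43.5 and 47.6 CPM in sham and 56.6, 74.8 and 82.1 CPM after ovariectomy. The groups did not overlap, and the 2 libraries with liver RNA were the highest. Its log2 fold change was 0.74 ± 0.12 (edgeR adjusted p = 0.0639), and without the libraries over 100 CPM of Alb it was 0.41 (edgeR adjusted p = 0.940). Sord is itself strongly expressed in liver, and the part of the liver RNA in its value was not tested.

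F5, coagulation factor V, another gene with high liver expression, was at 13.9, 6.96 and 9.17 CPM in sham and 23.3, 21.4 and 28.97 CPM after ovariectomy. Library 1, without liver RNA, lay among the other ovariectomy libraries, and the log2 fold change of 1.29 ± 0.24 (edgeR adjusted p = 0.113) was 1.22 without the libraries over 100 CPM of Alb. Tspan4, a tetraspanin, was at 28.4, 32.8 and 27.4 CPM against 39.3, 56.0 and 49.0 CPM, a log2 fold change of 0.71 ± 0.14, and 0.41 without the libraries over 100 CPM of Alb.

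The other 3 were lower by less than a factor of 2 but with narrow groups. Id1, a BMP target that inhibits basic helix-loop-helix factors, was at 98.1, 103 and 97.6 CPM in sham and 79.2, 78.0 and 70.8 CPM after ovariectomy. The log2 fold change was -0.39 ± 0.08 (edgeR adjusted p = 0.151). The ubiquitin protease gene Usp31 had a log2 fold change of -0.45 ± 0.10 and the protein phosphatase inhibitor gene Ppp1r14c one of -0.39 ± 0.09. All 3 had values near these without the libraries over 100 CPM of Alb (-0.33, -0.42 and -0.35).

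Estrogen receptors and their classic targets differed little. Esr1 was at 9.57, 8.24 and 7.17 CPM in sham and 8.19, 7.69 and 7.21 CPM after ovariectomy, a log2 fold change of -0.11 ± 0.23. Esr2 was scarce, at 3.66, 1.65 and 1.12 CPM against 0.62, 1.97 and 1.98 CPM, and Gper1 was at 0.64 to 1.37 CPM against 0.69 to 2.00 CPM. The groups overlapped for all 3. Without the libraries over 100 CPM of Alb, Esr2 moved from -0.48 to -1.78 and Gper1 from 0.31 to 1.05 on the log2 scale, with a single ovariectomy library left. Over all libraries, their adjusted p in edgeR ranged from 0.833 to 0.938.

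The progesterone receptor gene Pgr, itself an estrogen target in the uterus, was at 1.73, 2.56 and 2.25 CPM in sham and 1.51, 2.69 and 1.34 CPM after ovariectomy, and the groups overlapped (log2 fold change -0.24, and -0.53 without the libraries over 100 CPM of Alb). Of the 18 tested members of the list of estrogen receptors and targets, 0 passed the adjusted threshold, 11 were higher and 7 lower by value, and the median log2 fold change was 0.06. Only Igfbp4 among them had separated groups. It encodes a protein that binds insulin-like growth factors and was at 181, 182 and 194 CPM against 213, 312 and 267 CPM (log2 fold change 0.51 ± 0.26; edgeR adjusted p = 0.569), and 0.20 without the libraries over 100 CPM of Alb. Greb1 and Cyp19a1 were among the 33 genes chosen for display and were below the count filter.

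None of the 72 gene lists (43 of cell markers, 29 of pathways) held a gene past the adjusted threshold. The lists are therefore described by how many members were separated between the groups, beside 7.50% of all genes for higher and 7.72% for lower, and by medians beside the median of 0.0035 over all genes. Members named from here on that are not among the 33 display genes were chosen after their values were seen.

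**Figure D4:**
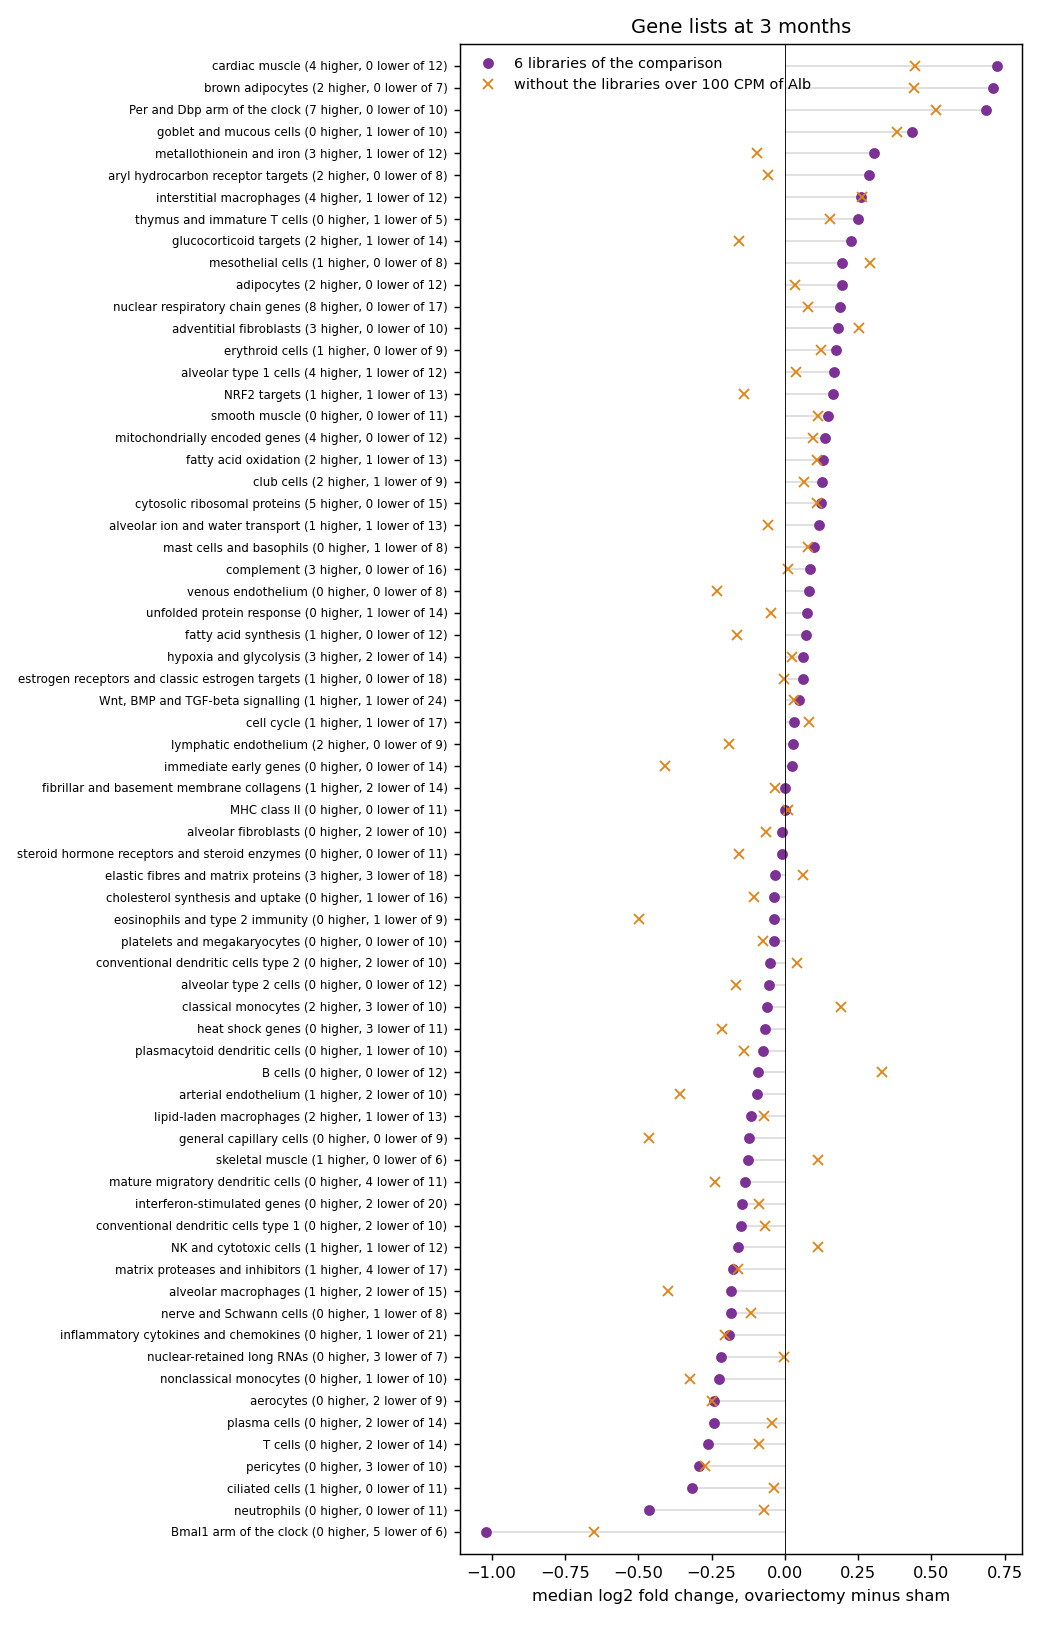
Each row is 1 of 68 gene lists with at least 5 members tested (the liver list is left out), with the number of members above or below all sham libraries in every ovariectomy library in brackets. Circles are the median log2 fold change of ovariectomy minus sham in the 6 libraries and crosses the median without the libraries over 100 CPM of Alb; the 2 clock arms lie near opposite ends at -1.02 and 0.69, and most other lists lie close to 0.

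Monocyte markers split in direction. Of the 10 classical monocyte markers tested, 2 were separated and higher and 3 separated and lower, with a median of -0.06, and of 0.19 without the libraries over 100 CPM of Alb. Ly6c2, which marks classical monocytes, was at 28.8, 31.0 and 22.9 CPM in sham and 20.6, 20.5 and 14.1 CPM after ovariectomy (log2 fold change -0.59 ± 0.17; edgeR adjusted p = 0.266). Ccr2, the chemokine receptor of the same cells, was at 57.2, 34.2 and 43.8 CPM against 65.4, 47.95 and 40.3 CPM, and its groups overlapped (log2 fold change 0.18, and 0.54 without those libraries). Plac8 (0.40 ± 0.14) and fibronectin, Fn1 (0.64 ± 0.22), were the 2 separated in the higher direction.

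Among dendritic cell markers the separated genes were lower. Of 11 markers of mature migratory dendritic cells, 4 were below all sham libraries and none above, with a median of -0.14, and of -0.24 without the libraries over 100 CPM of Alb. Ccl22, a chemokine that draws regulatory T cells, was at 12.46, 14.1 and 10.1 CPM in sham and 9.36, 9.21 and 8.44 CPM after ovariectomy, a log2 fold change of -0.44 ± 0.23. Cd40, the costimulatory receptor, had a log2 fold change of -0.50 ± 0.17 (-0.31 without the libraries over 100 CPM of Alb) and Apol7c one of -1.01 ± 0.48. Of 10 markers of type 2 conventional dendritic cells, 2 were also separated and lower. Cd209a was at 8.29, 9.64 and 7.48 CPM against 6.40, 6.23 and 6.25 CPM (-0.43 ± 0.26), and the lectin gene Mgl2 was at 22.5, 22.8 and 25.4 CPM against 12.9, 17.2 and 13.8 CPM (-0.68 ± 0.18; edgeR adjusted p = 0.224). Xcr1, of type 1 dendritic cells, overlapped between groups (-0.36 ± 0.37). MHC class II genes had no separated member among 11 and a median of -0.0008.

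Markers of interstitial macrophages were the myeloid list with the most members higher. Of 12 tested, 11 were higher by value, 4 of them separated, and 1, Mgl2, was separated and lower. The median was 0.26, and 0.26 without the libraries over 100 CPM of Alb. Cd163, the scavenger receptor for haptoglobin and hemoglobin, was at 8.09, 10.4 and 7.73 CPM in sham and 14.5, 12.8 and 13.8 CPM after ovariectomy (0.64 ± 0.19; edgeR adjusted p = 0.266). C1qa, a chain of complement C1q, was at 72.3, 62.1 and 75.9 CPM against 86.3, 88.9 and 89.0 CPM. Cd209f was also separated and higher (0.62 ± 0.35).

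Of 13 genes of the lipid-laden macrophage list, 6 were higher and 7 lower by value, with 2 separated and higher and 1 separated and lower. Mmp12 and Spp1 were among those lower by value. Mmp12, the macrophage elastase, was at 5.97, 9.89 and 7.79 CPM in sham and 4.47, 6.34 and 4.12 CPM after ovariectomy, and its groups overlapped (-0.66 ± 0.34; edgeR adjusted p = 0.560). Spp1, osteopontin, was at 142, 138 and 115 CPM against 88.3, 71.2 and 72.2 CPM, with separated groups (-0.77 ± 0.26; edgeR adjusted p = 0.383). Msr1, another gene of the lipid-laden macrophage list, was separated in the other direction (0.67 ± 0.26), though by a narrow gap, 6.77 against 6.79 CPM. The list had a median of -0.12 over 13 genes, and of -0.07 without the libraries over 100 CPM of Alb.

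T cell, plasma cell and neutrophil lists leaned lower by value, with few separated members. All 14 T cell genes tested were lower by value (median -0.26), 2 of them separated, and the median was -0.09 without the libraries over 100 CPM of Alb. Of 11 neutrophil genes, 10 were lower by value and 0 were separated. Their median was -0.46, and -0.07 without those libraries. In the plasma cell list 10 of 14 genes were lower by value, 2 of them separated (median -0.24, and -0.04 without those libraries). The kappa constant region Igkc was at 639, 844 and 1244 CPM in sham and 628, 480 and 288 CPM after ovariectomy (-0.97 ± 0.41, and -0.53 without the libraries over 100 CPM of Alb). The joining chain gene Igj overlapped between the groups.

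Among epithelial markers, the alveolar type 1 and club cell lists held the most separated genes. Of 9 club cell markers, 2 were separated and higher and 1 separated and lower. Their median was 0.13, and 0.06 without the libraries over 100 CPM of Alb. By value 6 of the 9 were higher and 3 lower. Scgb1a1, the most abundant lung marker named above after Sftpc, was among the lower, with overlapping groups (-0.48 ± 0.28). Of 12 alveolar type 1 markers, 4 were separated and higher and 1 lower, with a median of 0.17 and of 0.04 without the libraries over 100 CPM of Alb. Cldn18, the tight junction claudin of the alveolus, was at 1629, 1483 and 1631 CPM in sham and 1716, 1922 and 2039 CPM after ovariectomy (0.26 ± 0.10). Igfbp2, which marks mature type 1 cells, had a log2 fold change of 0.45 ± 0.17 and Pdpn, podoplanin, one of 0.23 ± 0.10. Without the libraries over 100 CPM of Alb, Cldn18, Igfbp2 and Pdpn were at 0.12, 0.18 and 0.10. Neither the 12 type 2 markers nor their median (-0.05) stood apart, with 0 separated, and Sftpc had a log2 fold change of 0.05 ± 0.09.

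In the vessel wall, the separated markers were mostly lower. Of 10 pericyte genes, 3 were separated and lower, with a median of -0.29. Gucy1b3, of the guanylyl cyclase that senses nitric oxide, was at 77.5, 59.2 and 50.5 CPM in sham and 48.3, 46.3 and 39.8 CPM after ovariectomy (-0.48 ± 0.14; edgeR adjusted p = 0.266), and Pdgfrb, the receptor for platelet-derived growth factor B, had a log2 fold change of -0.34 ± 0.16 (-0.57 without the libraries over 100 CPM of Alb). Of 9 aerocyte genes, 8 were lower by value and 2 were separated. Among those was Kdr, the main VEGF receptor, at 211, 198 and 171 CPM against 163, 168 and 158 CPM (-0.25 ± 0.08). Gja5, the connexin of arterial endothelium, was at 53.3, 49.5 and 50.3 CPM against 38.2, 37.3 and 37.7 CPM (-0.44 ± 0.15; edgeR adjusted p = 0.349).

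Matrix genes went both ways. Eln, elastin, was at 325, 286 and 307 CPM in sham and 284, 191 and 258 CPM after ovariectomy, separated by a narrow gap (-0.33 ± 0.17; edgeR adjusted p = 0.567), and at -0.11 without the libraries over 100 CPM of Alb. Of 18 elastic fibre and matrix protein genes, 3 were separated and higher and 3 separated and lower. Among 14 collagens, 1 was separated and higher and 2 separated and lower, among them Col6a3 (-0.38 ± 0.11), and the median was -0.0007. Col1a1 and Col3a1 overlapped (0.02 ± 0.21 and 0.08 ± 0.13).

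Of 17 matrix proteases and inhibitors, 4 were separated and lower and 1 separated and higher. Mmp3, stromelysin 1, was at 69.8, 53.7 and 44.5 CPM against 41.4, 33.9 and 33.6 CPM (-0.63 ± 0.18; edgeR adjusted p = 0.277). Adventitial fibroblast markers had 3 of 10 separated and higher. Clec3b, tetranectin, had the smallest p of them at 120, 93.3 and 104 CPM against 131, 151 and 160 CPM (0.48 ± 0.11; edgeR adjusted p = 0.224), and Serpinf1 followed (0.83 ± 0.25). They were at 0.31 and 0.40 without the libraries over 100 CPM of Alb. Slc7a10, a neutral amino acid transporter on the alveolar fibroblast list, was at 23.9, 22.5 and 19.2 CPM against 15.2, 12.97 and 13.7 CPM (-0.65 ± 0.18; edgeR adjusted p = 0.266).

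Nuclear genes of the respiratory chain were higher by small amounts. Of 17 tested, 16 were higher by value and 8 were separated and higher, against 7.50% of all genes, with a median of 0.19 and of 0.08 without the libraries over 100 CPM of Alb. Cox4i1, a subunit of cytochrome c oxidase, was at 139, 143 and 160 CPM in sham and 161, 218 and 189 CPM after ovariectomy (0.36 ± 0.10; edgeR adjusted p = 0.265), and Ndufb8, of complex I, had a log2 fold change of 0.35 ± 0.17. They were at 0.12 and 0.19 without the libraries over 100 CPM of Alb. Of 15 ribosomal protein genes, 14 were higher by value and 5 were separated. Rps9 was at 546, 492 and 563 CPM against 619, 682 and 684 CPM (0.31 ± 0.09; edgeR adjusted p = 0.266). The 7 nuclear-retained long RNAs, kept as a sign of RNA quality, had a median of -0.22 (-0.002 without the libraries over 100 CPM of Alb) with 3 separated and lower, and their part in these differences was not tested.

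Heart muscle genes were higher by value in 12 of 12 cases, with 4 separated and a median of 0.72, and 0.44 without the libraries over 100 CPM of Alb. Their mean log2 CPM was 2.67, 3.05 and 2.79 in sham and 3.24, 4.22 and 3.12 after ovariectomy, so library 2 stood above the other two. Myh6, a cardiac myosin heavy chain, was at 11.9, 22.4 and 15.7 CPM in sham and 26.3, 40.04 and 23.5 CPM after ovariectomy (0.85 ± 0.55). Tnnc1, cardiac troponin C, was at 4.56, 5.19 and 5.43 CPM against 8.94, 14.0 and 5.83 CPM. Library 1, without liver RNA, also lay above all sham libraries in both genes.

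Among stress and xenobiotic genes the widest difference came from 1 library. Cyp1a1, the main target of the aryl hydrocarbon receptor, was at 4.50, 3.11 and 2.43 CPM in sham and at 2.75, 70.3 and 5.83 CPM after ovariectomy. Only library 2 was high, the groups overlapped, and the log2 fold change of 2.98 ± 1.03 (edgeR adjusted p = 0.413) was -0.28 without the libraries over 100 CPM of Alb. Mt1, a metallothionein, was also highest in library 2, at 60.4 CPM, beside 37.9 and 40.4 CPM in libraries 1 and 3 and 31.99 to 35.5 CPM in sham, and its log2 fold change of 0.45 ± 0.14 was 0.16 without the libraries over 100 CPM of Alb. Hmox1 and Nqo1, targets of NRF2, overlapped between groups (-0.03 ± 0.13 and 0.42 ± 0.28), as did Fkbp5, a glucocorticoid target (0.21 ± 0.21). Cdkn1a, the cell cycle inhibitor p21, was at 83.2, 96.5 and 104 CPM against 77.9, 69.0 and 75.9 CPM (-0.35 ± 0.09; edgeR adjusted p = 0.224). Acsl1, which activates long-chain fatty acids, was separated and higher (0.50 ± 0.13, and 0.31 without the libraries over 100 CPM of Alb). Of 11 heat shock genes, 3 were separated and lower, with Hspa1a at 7.45, 20.6 and 9.42 CPM against 4.82, 5.05 and 4.76 CPM.

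The comparison most like it is ovariectomy against sham after 5 months of smoke, in 5 libraries each that share none with the 3-month groups. There 230 genes (1.36%) passed the adjusted threshold in the same fit, 99 higher (0.587%) and 131 lower (0.776%). Of these 230, 206 (89.6%) had the same direction at 3 months, beside 60.7% of all genes tested. At 3 months 84 of the 230 (36.5%) had an unadjusted p under 0.05, beside 9.29% of all genes, and 83 of the 84 had the same direction. The test of the difference between the 2 durations called 0 genes in edgeR (0%), with a smallest edgeR adjusted p of 0.938. At an unadjusted edgeR p under 0.05 there were 844 (5.00%). DESeq2 called 23 and limma 0. Of the 23, 21 had a negative difference, 5 months minus 3 months, and 0 were clock genes. Fgb and Ttr, both on the liver list, had the smallest DESeq2 p among them.

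The clock genes lay on the same side at both durations. At 5 months Nfil3 (-0.88 ± 0.20; edgeR adjusted p = 0.0314) and Cry1 (-0.62 ± 0.14; edgeR adjusted p = 0.0334) fell, and Hlf (0.40 ± 0.10; edgeR adjusted p = 0.0404) and Tef (0.51 ± 0.10; edgeR adjusted p = 0.0218) rose. None of these 4 calls held without the libraries over 100 CPM of Alb (Nfil3 -0.87, Cry1 -0.47, Hlf 0.36 and Tef 0.36; edgeR adjusted p = 0.0671, 0.189, 0.200 and 0.0524) or without ovariectomy library 3 of 5 months. When each of the 16 libraries was left out in turn, the call was lost 5 times for Nfil3, 7 for Cry1, 8 for Hlf and once for Tef, with the same direction each time. For Nfil3 these were sham libraries 1, 3 and 5 and ovariectomy libraries 3 and 4 of 5 months, and for Cry1 sham libraries 1, 2 and 3 and ovariectomy libraries 2, 3, 4 and 5. For Hlf they were sham libraries 1, 2 and 5 and ovariectomy libraries 1, 3 and 4 of 5 months and sham library 1 and ovariectomy library 3 of 3 months. The median of the Bmal1 arm was -0.75 and that of the Per and Dbp arm 0.48. By replicate number, the arm difference described above was 0.611, 0.608, 0.903, 1.38 and 1.25 in the 5-month sham libraries. It was 1.17, 1.58, 2.16, 2.66 and 2.32 after ovariectomy. The groups therefore overlapped at 5 months. The hour of collection is not given for these libraries either, and its part was not tested. Their titles also fall in separate number runs by surgery, and the part of these runs was not tested. Nr1d2 had a log2 fold change of 0.60 ± 0.15 at 5 months against 1.36 at 3 months (unadjusted p of the difference 0.00796; edgeR adjusted p = 0.938 or higher for every gene).

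Other genes called at 5 months are given beside their 3-month values, and none passed the edgeR test of the difference. Eln fell at 5 months (log2 fold change -0.68 ± 0.13; edgeR adjusted p = 0.0232), against -0.33 at 3 months. Igfbp2 (0.64 ± 0.14; edgeR adjusted p = 0.0361) and Pdpn (0.30 ± 0.08; edgeR adjusted p = 0.0495) rose at 5 months, and Slc7a10 (-0.60 ± 0.14; edgeR adjusted p = 0.0379) and Cdkn1a (-0.29 ± 0.07; edgeR adjusted p = 0.0412) fell, all in the direction of the 3-month value (0.45, 0.23, -0.65 and -0.35). Without the libraries over 100 CPM of Alb the calls of Eln (-0.50), Slc7a10 (-0.65) and Cdkn1a (-0.24) did not hold, and leaving out each library in turn ended the call 3 times for Eln, 8 for Igfbp2, 12 for Pdpn, 6 for Slc7a10 and 10 for Cdkn1a. For Eln these were sham libraries 1 and 3 and ovariectomy library 3 of 5 months, for Slc7a10 sham libraries 1, 4 and 5 and ovariectomy libraries 1, 4 and 5. For Igfbp2 they were sham libraries 1, 3, 4 and 5 and ovariectomy libraries 1, 2, 3 and 5. Every 5-month library but sham 2 and ovariectomy 2 and 5 ended the call of Pdpn, as did 5 of the 3-month libraries, and every 5-month library but sham 4 and ovariectomy 5 that of Cdkn1a, as did sham 2 and ovariectomy 3 of 3 months. Id1, Usp31 and Ppp1r14c, lower at 3 months, were at -0.09 ± 0.06, -0.06 ± 0.08 and -0.02 ± 0.07 at 5 months.

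**Figure D5:**
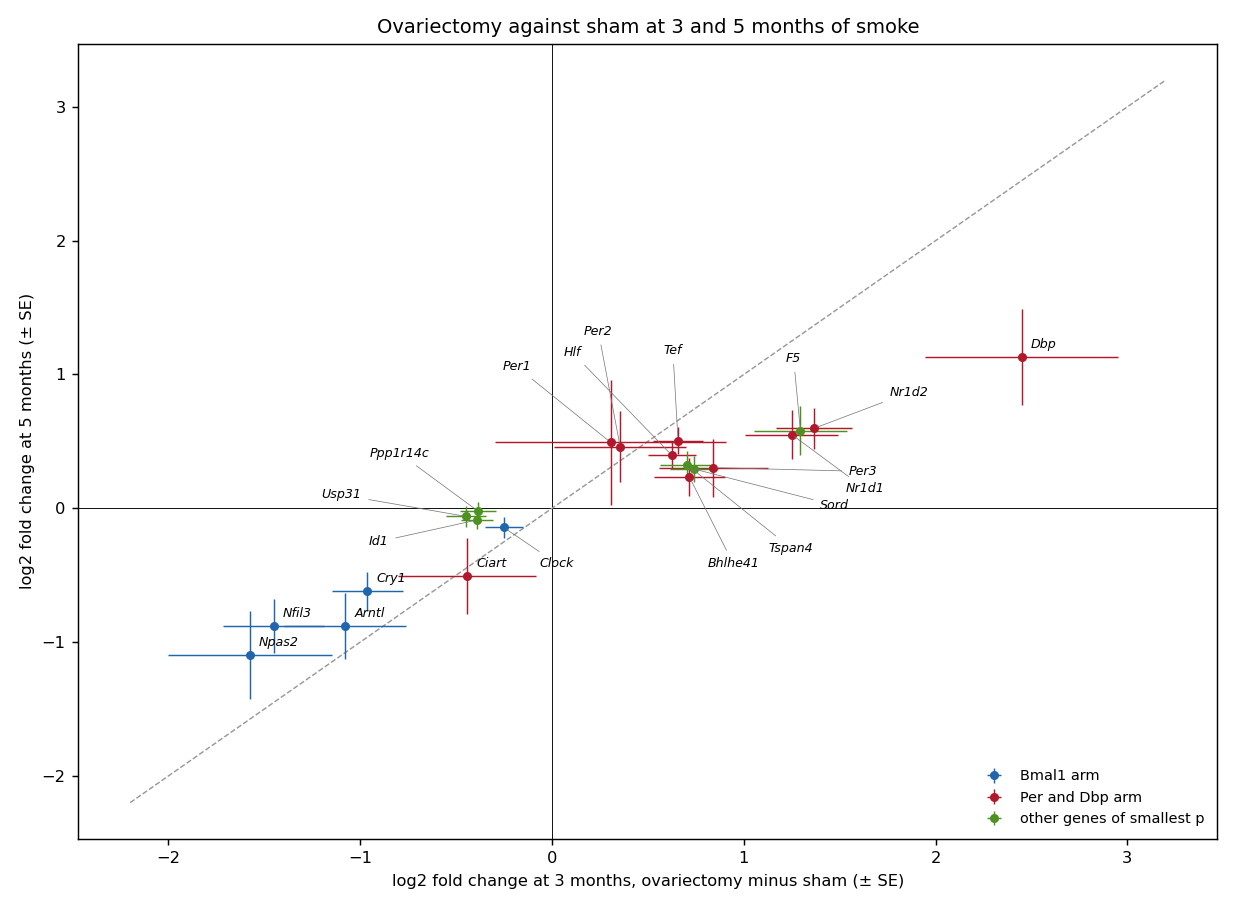
Log2 fold change of ovariectomy minus sham at 3 months (horizontal) against 5 months (vertical), each with its SE, for 15 clock genes and the other 6 genes of smallest p; the dashed line marks equal values. The Bmal1-arm genes drawn lie below 0 on both axes, Per and Dbp arm genes other than Ciart above 0 on both, and Id1, Usp31 and Ppp1r14c near 0 at 5 months.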

How the data were processed

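Poly(A) RNA from mouse lung, extracted with Trizol and made into libraries with an NEBNext Ultra 2 kit per the labels' protocols, was deposited as 2 tables of 32 libraries. The deposited raw count table holds whole-number counts for 35275 Ensembl genes, and the deposited normalized table gives 35186 of them in TPM, which by the values is count per gene length at an equal library sum. FastQC and the builds GRCm38 and mm10 are named per the submitters' processing notes; aligner, counter and strand setting were not given in the sources used here, so overlapping and antisense genes may share reads. Gene names and gene positions were used as the tables give them.

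The counts of 16 female smoke libraries were fitted with edgeR 4.0.16 (TMM, filterByExpr, robust quasi-likelihood F test, 1 mean per group, 12 residual degrees of freedom) in R 4.3.3, leaving 16874 genes. Contrasts were ovariectomy minus sham at 3 months, at 5 months, and their difference, with Benjamini-Hochberg adjustment and a threshold of 0.05. CPM are TMM-scaled. Alternatives were DESeq2 1.42.0, limma 3.58.1 on log2(TPM + 1), other filters, size factors and sample sets, and each library left out in turn. The scripts were tested on simulated data. Named genes were the 15 largest differences per direction among called genes of mean log2 CPM 1 or more, filled to 5 per direction by smallest p since none was called, plus 33 display genes. The genes, lists and tests were chosen with earlier results of these data known. Promoter windows came from RefSeq (GRCm38.p6), matched by symbol. The other 16 libraries entered only the alternative fit of all 32. A few list members are not reported here.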

Additional observations from a re-analysis of the deposited data

Results flagged for a closer look

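In the 5-month groups, used here for comparison, 10 sets of 5 libraries were examined for a library that stands apart from the other 4, and 3 had one; chance gives about 1 in 20. Among the sham libraries at 5 months, 1 had the lowest total, 14174600 counts. Among the ovariectomy libraries at 5 months, 1 had 1113 CPM of Alb, and the same library had 1484 summed CPM of the 10 liver genes. Alb is 1 of those 10 genes, so these flags are not independent and the rate of 1 in 20 does not apply to them separately. The groups of 3 libraries at 3 months are too small for this check; there the same liver list was at 713 and 1606 summed CPM in ovariectomy libraries 2 and 3. The part of this RNA in the differences between groups was not tested beyond leaving those libraries out.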

How the results depend on the processing

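At 3 months the count of genes past the threshold was 0 with RLE size factors, with the stricter filter, and without the libraries over 100 CPM of Alb (an alternative chosen after seeing the data). It was 3 without a count filter, 1 without robust dispersion, 6 with all 32 libraries, 2 with the 6 libraries alone, 93 with DESeq2, 1 with limma, and 0 to 6 when each library was left out in turn (6, among them Sord, Nr1d2, Tef and Npas2, without ovariectomy library 1). At 5 months it was 602 with DESeq2, 111 without the libraries over 100 CPM of Alb, and 39 to 277 when each library was left out. The difference of the durations gave 23 with DESeq2, with Fgb and Ttr of the liver list first by p, and 0 each time a library was left out. Over 28 alternatives the 12 separated clock genes had 336 values and the 10 genes of smallest p 280, and 0 of either changed sign. Both sets were chosen for groups that do not overlap, so leaving out a library could hardly turn a sign. These counts are therefore no test of the differences.

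With the replicate number as a block, 10 genes passed in the 16 libraries and 53 in the 6 libraries, 10 of these clock genes. Deviations of same-numbered libraries from their group means correlated at 0.0331, 0.0372 and 0.0363 across genes. Each library correlated best with its own number, but the labels do not say that a number marks a pair. Because libraries of a group share the mean, these correlations are not independent of each other, and pairing was not tested.

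Some display genes, and Per2, changed sign. Among them Cyp1a1 had a log2 fold change of 2.98 with all libraries, and the others had smaller values. Leaving out each library in turn gave -0.247 to 0.456 for Adipoq, -0.0307 to 0.389 for Ccr2, -0.053 to 0.126 for Col1a1, -0.0496 to 0.213 for Col3a1, -0.466 to 0.637 for Cxcl13, -0.789 to 0.143 for Esr2, -0.262 to 0.662 for Gper1, -0.172 to 0.0586 for Hmox1, -0.431 to 0.469 for S100a8 and -0.0208 to 0.121 for Sftpc. Without ovariectomy libraries 2 and 3 (chosen after seeing the data), and without all libraries over 100 CPM of Alb, the values were -0.0861 and -0.0926 for Per1, -0.0487 and -0.0568 for Per2, -0.276 and -0.283 for Cyp1a1, -0.0954 and -0.102 for Nqo1, -0.104 and -0.112 for Sftpc, 0.0926 and 0.0843 for Igj and 0.334 and 0.328 for S100a8. With limma, Col1a1 was at -0.0293, Sftpc at -0.00172 and Cxcl13 at -0.0939, and with the block in 6 libraries Cxcl13 was at -0.0118. The cause of these changes was not tested. With 3 libraries per group at 14150357 to 18971266 counts each, genes of few counts such as Gper1 carry wide errors.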
